A study of Mus musculus with 15 samples.

Results

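The genes described here encode cell surface proteins by which mesenchymal, blood and endothelial progenitor cells are sorted and recognised. Of 9 such markers, 7 had a row of their own on the array (Cd34, Thy1, Eng, Cd44, Nt5e, Vcam1 and Mme), out of 14860 genes with such a row. They were taken by symbol, but the set was chosen with earlier results of these data known. Ly6a and Alcam had no single-gene row in the annotation used and were not analysed here. Each of the 7 genes had 1 row.

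Surface markers of this kind are enzymes, adhesion receptors or co-receptors rather than labels alone. CD34 is a sialomucin of haematopoietic and endothelial progenitors that is also carried by some stromal cells, and THY1 (CD90) is a lipid-anchored protein of fibroblasts, neurons and mouse T cells. CD44 binds hyaluronan, VCAM1 binds the integrin VLA-4 on leukocytes, endoglin is a co-receptor for the TGF-beta family, and NT5E (CD73) and MME (neprilysin, CD10) are enzymes that face the outside of the cell. THY1, CD73, endoglin and CD44 are widely used to define human mesenchymal stromal cells in culture. MTA1, the protein altered in the study, is a subunit of the nucleosome remodelling and deacetylase (NuRD) complex, a regulator of transcription.

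The cells were mouse embryonic fibroblasts (MEFs) of strain C57BL/6J, and their RNA was hybridised to Affymetrix exon arrays, 3 arrays for each of 5 groups. Mta1-KO/Mta1 cells were Mta1 knockout MEFs into which Mta1 had been transfected, and Mta1-KO cells were the knockout MEFs themselves. P53-KO/Mta1 cells were P53 knockout MEFs overexpressing Mta1, and P53-KO cells were those MEFs without added Mta1. WT cells were wild-type MEFs. The WT and both Mta1 groups came from embryos of day 9.0 and both P53 groups from embryos of day 12.5, so P53 status and embryo age cannot be told apart. The arrays of a group are called biological replicates, but no source says that each came from its own embryo or culture, so the p-values reflect only how far these arrays spread. The P53-KO MEFs came from another laboratory. The targeted gene was checked first. The Mta1 row read -1.13, -1.35 and -1.28 for the arrays labelled Mta1-KO/Mta1, -1.06, -1.08 and -1.10 in Mta1-KO, 0.65, 0.76 and 0.65 in P53-KO/Mta1, 0.36, 0.52 and 0.37 in P53-KO, and 0.08, -0.06 and 0 in WT. It was thus low in all Mta1-KO arrays against WT (log2 difference -1.09, adjusted p = 6.17e-09), but the arrays labelled Mta1-KO/Mta1 were not above Mta1-KO (-0.17, 95% interval -0.31 to -0.03, adjusted p = 0.0669). P53-KO/Mta1 stood above P53-KO (0.27, adjusted p = 0.00603). Where the probes of the row lie is not stated in the sources used, so it is not settled whether the row would read an introduced transcript. The study also compared Mta1 protein in all 5 groups by Western blot, whose bands could not be read here. Mta1 addition below is named from the labels. No single-gene row of Trp53 was used.

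Values are log2 values in which every gene was centred on its median over the 15 arrays, so they carry differences between arrays but no level, and no gene can be set against another gene's level. An array value of 0 is that gene's own median. Differences were tested with limma across all 16755 rows, and p-values were adjusted over all rows by the Benjamini-Hochberg method. A gene was counted as called where its adjusted p was under 0.05 and its change at least 2-fold. Because the cells were profiled in bulk, fewer cells of a type and less RNA per cell cannot be told apart.

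The promoters of the markers that moved furthest in the knockout or with labelled Mta1 addition are shown first, where RefSeq gave one: Cd34 and Nt5e, both lower in Mta1-KO, and Mme, called lower in both comparisons labelled as Mta1 addition. Each line is the 250 bases before the RefSeq start (build GRCm38.p6, plus strand in all 3), with GC boxes (GGGCGG on either strand) in capitals.
Cd34, chr1:194938571-194938820: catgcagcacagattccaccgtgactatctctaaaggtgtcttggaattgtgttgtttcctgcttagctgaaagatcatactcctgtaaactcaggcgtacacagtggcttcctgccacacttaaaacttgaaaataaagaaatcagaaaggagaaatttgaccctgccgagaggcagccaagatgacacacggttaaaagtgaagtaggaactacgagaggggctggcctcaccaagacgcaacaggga
Nt5e, chr9:88327359-88327608: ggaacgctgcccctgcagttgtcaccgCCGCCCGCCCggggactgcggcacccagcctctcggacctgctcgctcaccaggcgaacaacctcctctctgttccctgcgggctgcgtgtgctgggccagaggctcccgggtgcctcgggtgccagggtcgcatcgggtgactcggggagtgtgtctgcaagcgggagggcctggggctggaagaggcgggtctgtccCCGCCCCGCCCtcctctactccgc
Mme, chr3:63294961-63295210: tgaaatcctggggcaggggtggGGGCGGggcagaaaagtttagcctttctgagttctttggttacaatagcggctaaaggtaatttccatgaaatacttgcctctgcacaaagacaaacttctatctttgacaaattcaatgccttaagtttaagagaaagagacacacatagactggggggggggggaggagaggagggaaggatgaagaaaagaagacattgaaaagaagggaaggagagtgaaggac
The windows differ in composition. That of Cd34 had a GC content of 46.4%, 6 CpG and no GC box, and that of Nt5e had 72.0% GC, 21 CpG and 4 GC boxes in a pair of clusters at its ends. That of Mme had 45.6% GC, 2 CpG and 1 GC box, while the windows of its other 2 annotated starts had 73.2% and 73.6% GC and 2 GC boxes each. Over all 32851 such windows the median was 52.4% GC and 6 CpG, and 32.7% held a GC box. In the 300-base windows that run on 50 bases past the start, 1 further motif, the gamma-activated site TTCNNNGAA, matched only Mme among the members with a promoter entry (at -166 from its first start) and 8.30% of all promoters. The interferon-stimulated response element (3.44% of promoters) and the TATA box TATAAA (13.6%) were in no window of these members. Such matches describe the letters and not a bound site.

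In Mta1-KO against WT, the markers moved strongly and in both directions. Thy1 and Vcam1 were called higher and Cd34 and Nt5e lower, 4 of 7 genes where 6.64% of all rows were called (2 higher, where 4.23% of rows were, and 2 lower, where 2.41% were). Their median difference was 0.62 log2, beside 0.03 for all rows. In the arrays labelled Mta1-KO/Mta1 against Mta1-KO, 1 of 7 was called, Mme, which was lower, where 1.11% of all rows were called (0.788% lower). In P53-KO/Mta1 against P53-KO, 1 of 7 was called, again Mme and again lower, where 1.62% of all rows were called (1.22% lower). The member medians were -0.10 and -0.19 log2 in those comparisons, beside -0.03 and -0.02 for all rows. By the adjusted p alone, 6, 2 and 4 members passed in the 3 comparisons, where 40.2%, 28.0% and 29.9% of all rows did.

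**Figure D1:**
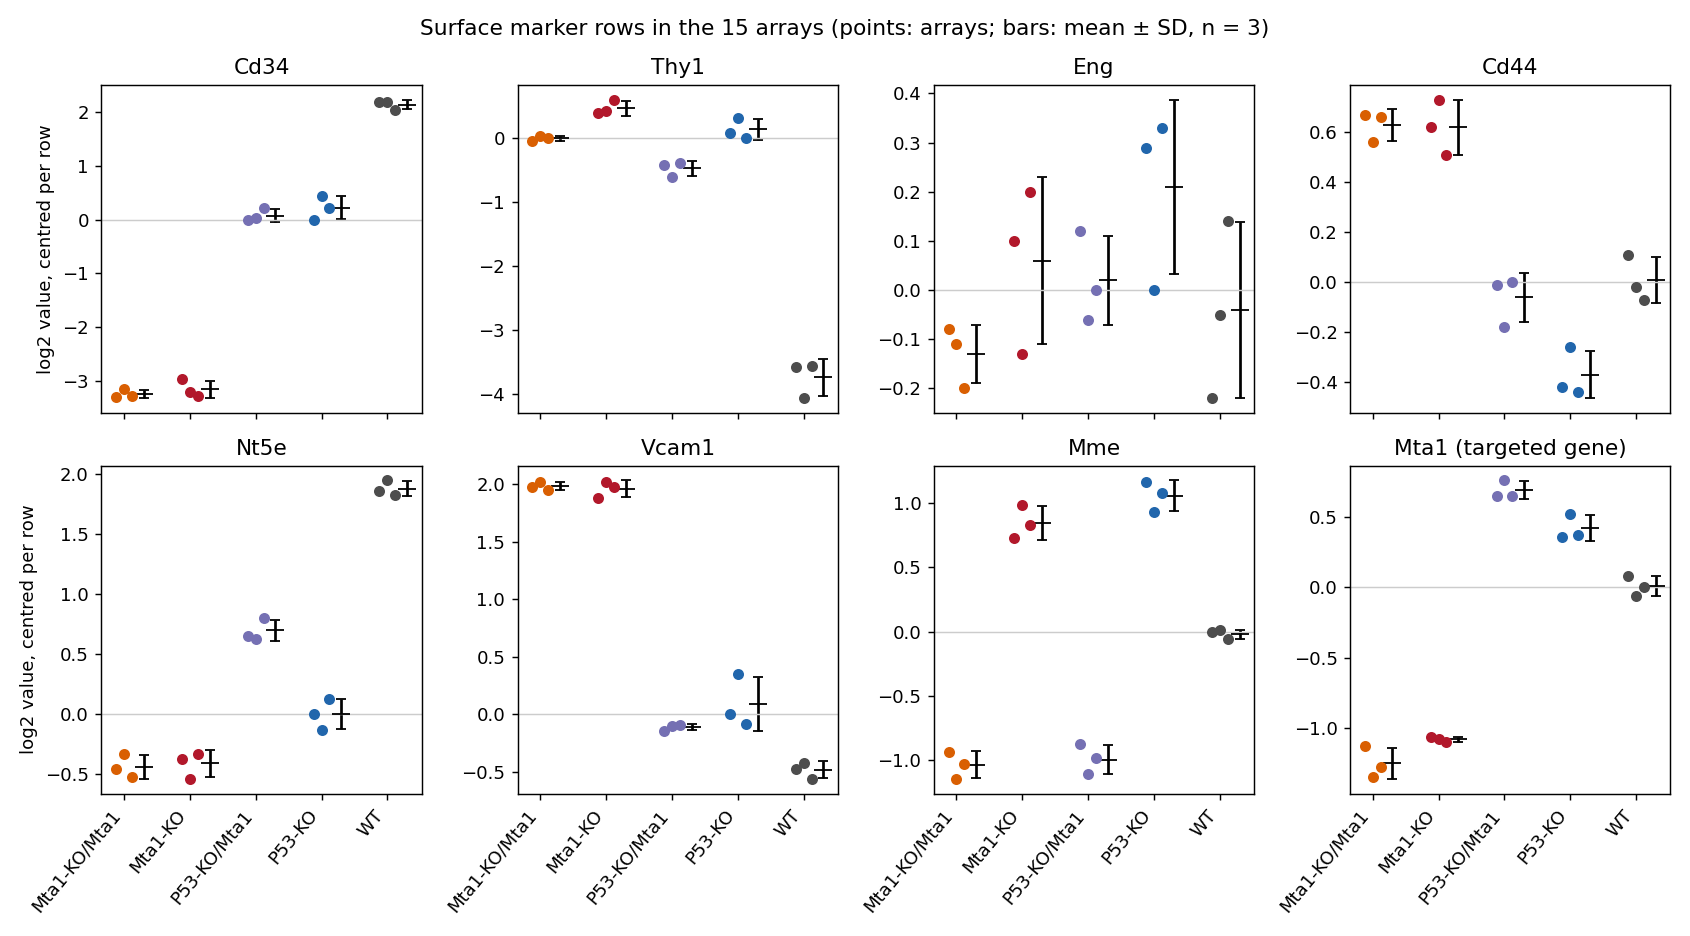
Centred log2 value (y axis) of the 7 surface marker genes and of Mta1 in each of the 15 arrays (points), by group (x axis), with mean ± SD (bars, n = 3). Cd34 lies between -3.30 and -2.97 in the 6 arrays labelled Mta1-KO/Mta1 or Mta1-KO and between 2.04 and 2.19 in WT, Thy1 is lowest in WT, and Mme is near -1 in both groups labelled as given Mta1. The y axes differ between panels.

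Cd34, the sialomucin of progenitor and vascular cells, showed the widest spread of the markers. Its values were -3.30, -3.16 and -3.29 for the arrays labelled Mta1-KO/Mta1, -2.97, -3.21 and -3.28 in Mta1-KO, -0.01, 0.03 and 0.21 in P53-KO/Mta1, 0, 0.44 and 0.22 in P53-KO, and 2.19, 2.18 and 2.04 in WT. The arrays thus fell on 3 levels, with WT above both P53 groups and these above both Mta1-KO groups, and no array of one level overlapped another. Mta1-KO was 39.3-fold lower than WT (log2 difference -5.30, SE 0.107, adjusted p = 5.15e-14), the rank 3 fall of all rows. P53-KO was 3.78-fold lower than WT (-1.92, adjusted p = 1.97e-09) and 10.4-fold higher than Mta1-KO (3.38, adjusted p = 7.81e-12). Neither comparison of labelled Mta1 addition gave a called difference: the arrays labelled Mta1-KO/Mta1 differed from Mta1-KO by -0.10 log2 (95% interval -0.33 to 0.13, adjusted p = 0.613), and P53-KO/Mta1 from P53-KO by -0.15 (-0.38 to 0.08, adjusted p = 0.368). The group means of Cd34 spanned 5.39 log2, rank 12 of 16755 rows. Its relatives and the selectin genes moved less. Of 4 genes with a row in a list of the CD34 family and selectins, 1 was called in Mta1-KO against WT, where 6.64% of all rows were. It was Selp, which encodes P-selectin of platelets and endothelium (-1.84, limma adjusted p = 1.72e-11), and the list median was 0.04.

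Nt5e encodes the ectoenzyme that makes adenosine from AMP, and it was ordered much as Cd34 was. It read -0.46, -0.33 and -0.52 for the arrays labelled Mta1-KO/Mta1, -0.37, -0.54 and -0.33 in Mta1-KO, 0.65, 0.63 and 0.80 in P53-KO/Mta1, 0, -0.13 and 0.13 in P53-KO, and 1.86, 1.95 and 1.83 in WT. WT stood above all others, both Mta1-KO groups lay lowest and overlapped, and P53-KO/Mta1 stood apart from P53-KO. Mta1-KO was 4.91-fold lower than WT (-2.30, SE 0.079, adjusted p = 1.16e-11) and P53-KO was 3.68-fold lower than WT (-1.88, adjusted p = 1.14e-10). The change with labelled Mta1 addition differed between the backgrounds. Nt5e rose 1.62-fold in P53-KO/Mta1 against P53-KO (0.70, adjusted p = 1.44e-05), under the 2-fold limit, and differed by -0.02 in the arrays labelled Mta1-KO/Mta1 against Mta1-KO (95% interval -0.19 to 0.15, adjusted p = 0.895). The difference of these responses, Mta1-KO background minus P53-KO background, was -0.72 (SE 0.112, 95% interval -0.96 to -0.48, adjusted p = 5.17e-04). By p alone it was the single member of 7 that passed this test, where 17.4% of all rows did, and none was called, where 1.63% of all rows were. P53-KO/Mta1 was still 2.27-fold below WT (-1.19, adjusted p = 2.11e-08). Of 11 ectonucleotidases and adenosine genes with a row, 3 were called in Mta1-KO against WT, where 6.64% of all rows were. Enpp3, an enzyme that hydrolyses extracellular nucleotides, was higher (3.19), and Slc29a1, a nucleoside transporter (-1.52), and Ada, adenosine deaminase (-1.15), were lower. None of the 11 was called in either comparison of labelled Mta1 addition.

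Thy1 ran the other way. It had values of -0.05, 0.03 and 0 for the arrays labelled Mta1-KO/Mta1, 0.39, 0.43 and 0.60 in Mta1-KO, -0.41, -0.60 and -0.39 in P53-KO/Mta1, 0.09, 0.32 and 0 in P53-KO, and -3.57, -4.06 and -3.56 in WT. WT stood far below the 12 other arrays, which lay between -0.60 and 0.60. Mta1-KO was 18.4-fold higher than WT (4.20, SE 0.122, adjusted p = 1.72e-12) and P53-KO was 14.6-fold higher than WT (3.86, adjusted p = 6.18e-12). Both comparisons of labelled Mta1 addition showed a small fall with no overlap between the groups, although for the arrays labelled Mta1-KO/Mta1 the Mta1 row itself was not above Mta1-KO. Thy1 fell 1.39-fold in the arrays labelled Mta1-KO/Mta1 against Mta1-KO (-0.48, adjusted p = 0.00861) and 1.52-fold in P53-KO/Mta1 against P53-KO (-0.60, adjusted p = 0.00168). Both were under 2-fold and left Thy1 far above WT, by 13.2-fold for the arrays labelled Mta1-KO/Mta1 and by 9.58-fold for P53-KO/Mta1. Neurons also carry THY1. Of 8 neural markers with a row, 2 were called in each P53 group against WT, both higher, where 12.1% (P53-KO) and 7.67% (P53-KO/Mta1) of all rows were called. Stmn2 differed by 2.98 log2 in P53-KO and by 5.14 in P53-KO/Mta1, and Nes by 1.04 and 1.46. By p alone, 3 were higher and 1, Map2, was lower (-0.68) in P53-KO/Mta1 against WT, where 7740 of all 16755 rows passed. In P53-KO/Mta1 against P53-KO, Stmn2 was called higher (2.16) and Map2 lower (-1.06), where 1.62% of all rows were called. Stmn2 differed by 0.05 in Mta1-KO against WT. Any part of neural cells in the Thy1 values was not tested. In the Ly6 family, whose members share with each other a three-finger fold and of which Ly6a is one, 11 of 15 listed genes had a row. Ly6f was called higher (1.80) and Lypd6 lower (-1.14) in Mta1-KO against WT, where 6.64% of all rows were called. None was called in either comparison of labelled Mta1 addition.

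Vcam1, the adhesion receptor for leukocyte integrins, was high in the Mta1-KO background. Its values were 1.97, 2.02 and 1.95 for the arrays labelled Mta1-KO/Mta1, 1.88, 2.02 and 1.97 in Mta1-KO, -0.14, -0.10 and -0.09 in P53-KO/Mta1, 0, 0.35 and -0.08 in P53-KO, and -0.47, -0.42 and -0.56 in WT. The 6 arrays of the Mta1-KO background stood above the other 9 with a wide gap. Mta1-KO was 5.42-fold higher than WT (2.44, SE 0.0885, adjusted p = 2.13e-11), and P53-KO was 1.49-fold higher than WT (0.57, adjusted p = 6.33e-05). P53-KO was 3.64-fold lower than Mta1-KO (-1.87, adjusted p = 4.71e-10). Labelled Mta1 addition gave no difference past the threshold, with 0.02 in the arrays labelled Mta1-KO/Mta1 against Mta1-KO (95% interval -0.17 to 0.22, adjusted p = 0.898) and -0.20 in P53-KO/Mta1 against P53-KO (-0.39 to -0.01, adjusted p = 0.115). Of 15 integrins and adhesion partners of VCAM1, THY1 and ALCAM with a row, 2 were called in Mta1-KO against WT, where 6.64% of all rows were. Gpc1, a heparan sulphate proteoglycan, was higher (1.31), and Mcam (CD146), an adhesion molecule of endothelium and pericytes, was lower (-2.08).

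Cd44, the hyaluronan receptor, changed less. It read 0.67, 0.56 and 0.66 for the arrays labelled Mta1-KO/Mta1, 0.62, 0.73 and 0.51 in Mta1-KO, -0.01, -0.18 and 0 in P53-KO/Mta1, -0.42, -0.26 and -0.44 in P53-KO, and 0.11, -0.02 and -0.07 in WT. Both Mta1-KO groups overlapped each other and lay above all other arrays, and P53-KO lay below them all. Cd44 in Mta1-KO was 1.53-fold above WT (0.62, SE 0.0747, adjusted p = 1.00e-05) and 1.30-fold lower in P53-KO than in WT (-0.38, adjusted p = 5.48e-04). It rose 1.24-fold in P53-KO/Mta1 against P53-KO (0.31, adjusted p = 0.00547), while the arrays labelled Mta1-KO/Mta1 differed from Mta1-KO by 0.01 (95% interval -0.16 to 0.17, adjusted p = 0.976). That difference between backgrounds, -0.31 (95% interval -0.53 to -0.08), did not pass (adjusted p = 0.0635). Among 18 hyaluronan genes and CD44 partners with a row, 3 were called in Mta1-KO against WT, beside 6.64% of all rows, and 2 in each comparison of labelled Mta1 addition, beside 1.11% and 1.62%. Tnfaip6, which modifies hyaluronan in inflamed tissue (2.06), and Vcan, a hyaluronan-binding proteoglycan (1.11), were above WT in Mta1-KO, and Ezr, the ezrin that links CD44 to actin, was lower (-2.32). Tnfaip6 and Has2, a hyaluronan synthase, were lower in the arrays labelled Mta1-KO/Mta1 than in Mta1-KO (-1.21 and -1.19). In P53-KO/Mta1 against P53-KO, Hmmr, another hyaluronan receptor, and Ezr were higher (1.19 and 1.06).

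Eng varied least. Its values were -0.08, -0.11 and -0.20 for the arrays labelled Mta1-KO/Mta1, 0.10, -0.13 and 0.20 in Mta1-KO, 0.12, -0.06 and 0 in P53-KO/Mta1, 0.29, 0 and 0.33 in P53-KO, and -0.22, -0.05 and 0.14 in WT. Neighbouring groups overlapped or did not differ beyond their spread. Mta1-KO differed from WT by 0.10 (95% interval -0.13 to 0.33, adjusted p = 0.515), and both comparisons of labelled Mta1 addition gave -0.19 (95% intervals -0.42 to 0.04 and -0.42 to 0.05, adjusted p = 0.251 with the arrays labelled Mta1-KO/Mta1 and 0.239 with P53-KO/Mta1). Of the 10 pairs of groups, 1 passed by p, P53-KO against the arrays labelled Mta1-KO/Mta1 (0.34, adjusted p = 0.0170), where 50.1% of all rows did. The group means of Eng spanned 0.34 log2, under the median span of all rows (0.49), and 61.0% of rows spanned more. Some partners of endoglin did move in Mta1-KO against WT. Of 20 TGF-beta family genes with a row, 2 were called higher and 2 lower, where 4.23% and 2.41% of all rows were. The ligand Tgfb1 (1.33) and the co-receptor Tgfbr3 (1.28) were higher. Id2 (-1.13), a target gene of the pathway, and the signal transducer Smad1 (-1.10) were lower, and the list median was -0.17. In P53-KO/Mta1 against P53-KO the ligand Tgfb3 was lower (-1.21).

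Mme encodes neprilysin, a peptidase of the cell surface that in humans marks early lymphoid cells and some stromal cells. It was the member that differed most in both comparisons of labelled Mta1 addition. It had values of -0.94, -1.15 and -1.03 for the arrays labelled Mta1-KO/Mta1, 0.73, 0.99 and 0.83 in Mta1-KO, -0.88, -1.11 and -0.99 in P53-KO/Mta1, 1.17, 0.93 and 1.08 in P53-KO, and 0, 0.01 and -0.06 in WT. Both groups labelled as given Mta1 lay below WT and both knockouts not given it lay above WT, with no overlap between these 3 levels. Mme fell 3.71-fold in the arrays labelled Mta1-KO/Mta1 against Mta1-KO (-1.89, SE 0.083, adjusted p = 2.94e-09), rank 11 among falls, and 4.15-fold in P53-KO/Mta1 against P53-KO (-2.05, SE 0.083, adjusted p = 5.83e-10), rank 33. These comparisons share no arrays, and the responses were not told apart (difference 0.16, 95% interval -0.09 to 0.42, adjusted p = 0.438). The fall in the arrays labelled Mta1-KO/Mta1 came with no higher reading of their own Mta1 row.

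The change in Mme passed the WT value. Mme in Mta1-KO was 1.82-fold above WT (0.87, SE 0.083, adjusted p = 9.03e-07) and 2.11-fold higher in P53-KO than in WT (1.08, adjusted p = 5.60e-08). It was 2.03-fold lower in the arrays labelled Mta1-KO/Mta1 than in WT (-1.02, adjusted p = 1.79e-07) and in P53-KO/Mta1 it was 1.97-fold below WT (-0.98, adjusted p = 2.24e-07). The calls against WT lie close to the 2-fold limit: without array 2 of the arrays labelled Mta1-KO/Mta1 the difference was -0.97 and no longer called, and without array 1 of P53-KO/Mta1 it was -1.03 and called. Of 35 rows called lower in both comparisons of labelled Mta1 addition, 5 ended below WT by p in both lines, and 4 of these stood above WT in Mta1-KO by p: Calhm5, Mme, Spon2 and Lpar4, named after their values were seen. A list of neprilysin relatives also held Anpep and Enpep, which are aminopeptidases outside that family. Of its 8 genes with a row, none was called in Mta1-KO against WT, where Mme was not called either. None was called in the arrays labelled Mta1-KO/Mta1 against Mta1-KO. Enpep, glutamyl aminopeptidase, was called lower in P53-KO/Mta1 against P53-KO (-1.22), and no true neprilysin relative was. In P53-KO against WT, Anpep, aminopeptidase N (1.60), and Enpep (1.30) were higher and Ece2 was lower (-1.19).

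**Figure D2:**
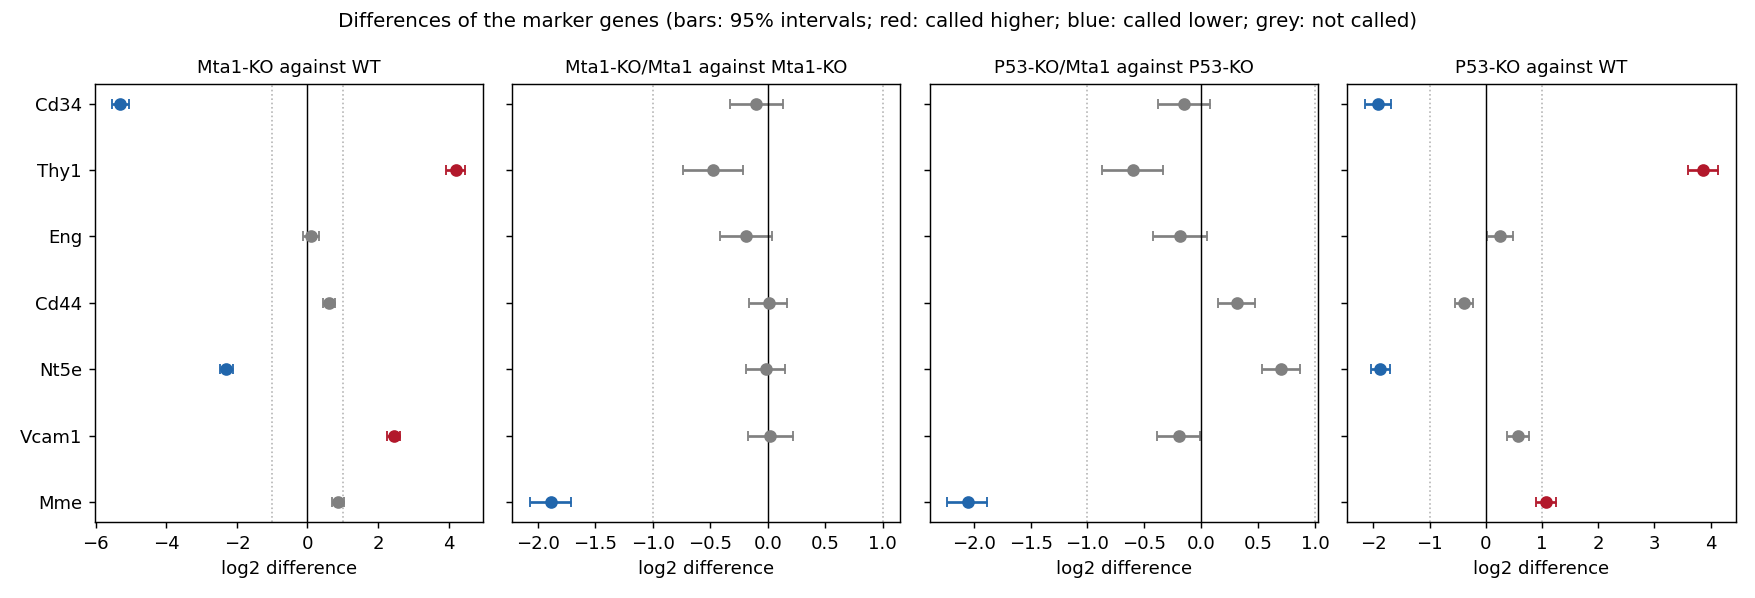
Log2 difference of each marker gene (x axis, points) with its 95% interval (bars) in 4 comparisons, with dotted lines at 2-fold. Cd34 and Thy1 lie furthest out in Mta1-KO against WT (-5.30 and 4.20), and Mme alone passes the 2-fold line in both comparisons of labelled Mta1 addition (-1.89 and -2.05). The x axes differ between panels.

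The 4 comparisons against WT share the WT arrays, so their values are given side by side. Cd34 and Nt5e were called lower and Thy1 higher in all 4 other groups against WT, and Vcam1 was called higher in both groups of the Mta1-KO background but in neither P53 group (0.57 in P53-KO and 0.37 in P53-KO/Mta1). In P53-KO against WT, 4 of 7 members were called, Thy1 and Mme higher and Cd34 and Nt5e lower, where 12.1% of all rows were. In the arrays labelled Mta1-KO/Mta1 against WT, 5 of 7 were called, where 5.74% of all rows were, and in P53-KO/Mta1 against WT 3 of 7, where 7.67% were. Between the knockouts, P53-KO against Mta1-KO, 2 of 7 were called, Cd34 higher and Vcam1 lower, where 8.95% of all rows were. The WT arrays were thus at one end of the order for Cd34, Nt5e, Thy1 and Vcam1. For Cd44, Eng and Mme they were not.

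Other cell type markers were set beside these values. Of 13 fibroblast markers with a row, 6 were called higher and none lower in Mta1-KO against WT (median 0.94 log2). Of all rows, 4.23% were called higher and 2.41% lower. Dcn, the proteoglycan decorin (4.90), Pdgfrb (1.93), Col1a1 (1.72) and S100a4 (1.49) were furthest. The mean of the fibroblast list per array lay between -0.22 and -0.17 in the arrays labelled Mta1-KO/Mta1, between 0.31 and 0.34 in Mta1-KO, between 0.00 and 0.22 in P53-KO/Mta1, between 0.63 and 0.74 in P53-KO, and between -0.87 and -0.81 in WT, so WT was lowest without overlap. Of 18 genes with a row in a list of stromal and mesenchymal markers, 6 were called higher and none lower in Mta1-KO against WT (median 0.36). Among them were Itm2a (4.75), Islr (3.69) and Cd248, endosialin of pericytes and fibroblasts (1.91). Pdgfra (1.02) and Pdgfrb (1.93) are in this list and in the fibroblast list and were counted in both, so the counts are not separate. In the comparisons of labelled Mta1 addition, fibroblast markers were lower, as Thy1 and Mme were: 10 of 13 were lower by p in each. The medians were -0.49 in the arrays labelled Mta1-KO/Mta1 against Mta1-KO and -0.68 in P53-KO/Mta1 against P53-KO, beside -0.03 and -0.02 for all rows. Of all rows, 28.0% and 29.9% passed by p in either direction. Col3a1 was called in both (-1.47 and -1.17) and Lum in P53-KO/Mta1 (-1.27). Among the 18 stromal and mesenchymal markers, Islr was called lower in the arrays labelled Mta1-KO/Mta1 against Mta1-KO (-1.79), where 1.11% of all rows were called. Islr (-1.58), Cd248 (-1.45) and Itm2a (-1.02) were called lower in P53-KO/Mta1 against P53-KO, where 1.62% of all rows were called. Because levels were removed by the centring, the fibroblast label could not be checked by how strongly these markers were expressed.

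Cd34 and Vcam1 are also carried by vascular and blood cells. Selp and Mcam, found on endothelium among other cells and given above, were lower in Mta1-KO than in WT, as Cd34 was. Of 16 endothelial markers with a row, 1 was called in Mta1-KO against WT, where 6.64% of all rows were. It was Flt1, a VEGF receptor, which was higher (1.10), and the list median was 0.09. Egfl7 (0.49) and Tek (0.15) were also higher by p but under 2-fold, and none was lower by p. Of all rows, 40.2% passed by p in either direction. Pecam1 (0.10), Cdh5 (0.05), Kdr (-0.02) and Emcn (0.07) were among the endothelial genes that did not pass by p. The mean of the list per array lay between -0.01 and 0.15 in Mta1-KO and between -0.16 and 0.03 in WT. Of 16 blood cell markers, 1 was called, beside the same 6.64% of all rows. It was Csf1r, the receptor of macrophages, which was lower (-1.70), and the list median was 0.09. Runx1 (0.67), Spn (0.59) and Itga2b (0.37) were higher by p but under 2-fold, where 40.2% of all rows passed by p. Ptprc (0.02), Itgam (0.04), Spi1 (0.10) and Kit (0.09) were not called, and the mean of the list lay between -0.01 and 0.09 in Mta1-KO and between -0.04 and 0.10 in WT. None of 9 epithelial and none of 8 neural markers was called in that comparison. In P53-KO against WT and in P53-KO/Mta1 against WT, 2 neural markers were called, Stmn2 and Nes, both higher, where 12.1% and 7.67% of all rows were called. The mean of the neural list per array lay between 0.74 and 0.78 in P53-KO/Mta1, between 0.58 and 0.65 in P53-KO and between -0.09 and -0.01 in WT. The part of any cell mixture in the values of the markers was not tested.

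**Figure D3:**
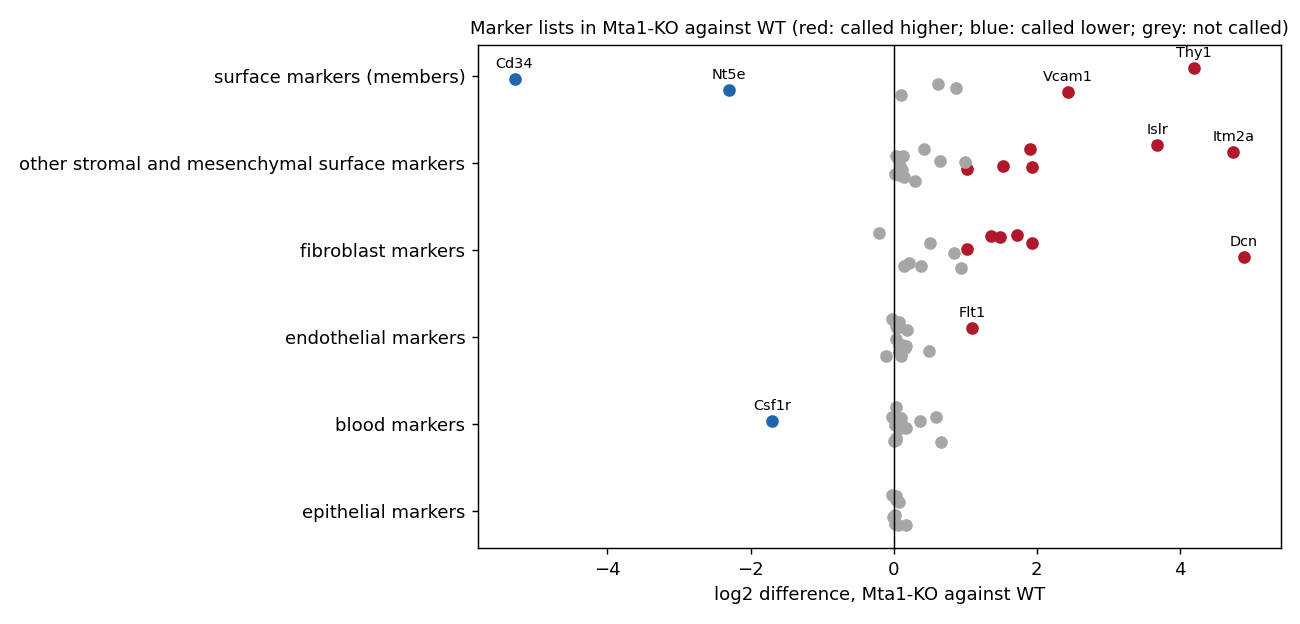
Log2 difference in Mta1-KO against WT (x axis) of each gene (points) in 6 marker lists (rows), in red where called higher, in blue where called lower and in grey where not called. The surface markers spread from -5.30 (Cd34) to 4.20 (Thy1). Of the endothelial and blood markers, 1 of 16 was called in each list, where 6.64% of all rows were.

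The genes whose values were most like those of each marker were ranked by Pearson's r over the 15 arrays, which share groups, so that r mostly follows the group means. Closest to Cd34 were Kif5c (0.994), Dennd5b (0.994) and Ociad2 (0.989). Closest to Nt5e were Myb (0.989), Farsa (0.988) and Hoxa7 (0.982), and closest to Thy1 were Dcn (0.993), Cyba (0.992) and Shisa4 (0.988). Vcam1 was most like Ddx58 (0.996), Nmi (0.995) and Enpp3 (0.995), and Cd44 most like Mlkl (0.978), Mcm6 (0.978) and Ifi202b (0.967). Mme was most like Calhm5 (0.967), Spon2 (0.967) and Snx29 (0.948), and Eng most like Nkx2-6 (0.969), Foxp2 (0.946) and Plekha7 (0.945). Among the members themselves, Cd34 and Nt5e ran together (r = 0.89), as did Cd44 and Vcam1 (0.872), while Cd34 and Vcam1 (-0.971) and Thy1 and Nt5e (-0.936) ran opposite over the 15 arrays.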

How the data were processed

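The authors hybridised RNA of 15 samples (5 groups of 3) to Affymetrix Mouse Exon 1.0 ST arrays and normalized the signals in GeneSpring GX 10.0.2. The table they deposited holds log2 values of 16755 rows, and a check showed that each row has a median of 0 across arrays, with array medians of -0.0165 to 0.0231. For the summary of probes into rows, the method was not given in the sources used. Depth does not apply to arrays, and the 3 arrays per group limit the precision.

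Array annotation gave 14996 rows 1 gene, 1019 several and 740 none, and 14941 single-gene rows matched a RefSeq table by Entrez ID with 0 symbols changed. A mean per group was fitted over all rows with limma 3.58.1 in R 4.3.3 (10 residual and 3.46 prior degrees of freedom), two-sided, with a contrast for each pair of groups and for the difference of the changes with labelled Mta1 addition. Calls needed an adjusted p (Benjamini-Hochberg) under 0.05 together with a 2-fold change. Intervals are 95% intervals of single differences, not adjusted over rows. The script was tested on simulated data. Named were every member, Mta1, the 3 genes most like each member, and up to 4 called genes per list and comparison by size of change. Where a gene had several rows, the one with the largest spread was used. The endothelial and blood genes given as not called were picked from their lists after their values were seen. The members and lists were chosen with earlier results of these data known, and lists carry no test of their own.

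Promoters came from RefSeq (GRCm38.p6), with an entry for 5 of 7 members. Alternatives were quantile normalization, centring each array on its median, robust eBayes, the replicate number as a block, fits to the compared groups only, the methods' t-test, other minimum folds and leaving out each array. Python 3.11.15 with matplotlib 3.10.9 drew the plots.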

Additional observations from a re-analysis of the deposited data

Results flagged for a closer look

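The change of Nt5e with labelled Mta1 addition differed between the 2 backgrounds by a test of the difference itself, -0.72 log2 in the Mta1-KO background minus the P53-KO background (SE 0.112, limma adjusted p = 5.17e-04). The difference of the responses was also past the threshold for the Mta1 row, at -0.44 (limma adjusted p = 0.00418), though it is not settled whether the row would read an introduced transcript. Both differences were under 2-fold. Single outlying arrays were not tested for in groups of 3.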

How the results depend on the processing

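Of 721 values of the members under alternative settings, 699 kept their side of the threshold, 20 gained a call and 2 lost one. No difference that was called under either setting changed direction. Changes of direction among differences called under neither setting were not counted. The calls lost were Mme in the arrays labelled Mta1-KO/Mta1 against WT without array 2 of that group (-0.97) and Mme in P53-KO against WT under quantile normalization (just under 1 log2 unit). Mme in P53-KO/Mta1 against WT gained a call without array 1 of P53-KO/Mta1 (-1.03), and the other gains came from a lower minimum fold.

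With no minimum fold, members called became 2, against 1, in the arrays labelled Mta1-KO/Mta1 against Mta1-KO, 4, against 1, in P53-KO/Mta1 against P53-KO (3 at 1.5-fold), 5, against 3, in P53-KO/Mta1 against WT, and 1, against 0, for the difference of the responses (also 1 at 1.5-fold). They became 6, against 4, in Mta1-KO against WT and in P53-KO against WT, and 6, against 5, in the arrays labelled Mta1-KO/Mta1 against WT. With each array left out in turn, the counts were 4 to 4 in Mta1-KO against WT and in P53-KO against WT, 1 to 1 in both comparisons of labelled Mta1 addition, 4 to 5 in the arrays labelled Mta1-KO/Mta1 against WT, 3 to 4 in P53-KO/Mta1 against WT and 0 to 0 for the difference of the responses.

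Counts over all rows moved with the minimum fold, from 2-fold to 1.5-fold to none: 1112, 2647 and 6732 in Mta1-KO against WT, 186, 1008 and 4698 in the arrays labelled Mta1-KO/Mta1 against Mta1-KO, and 271, 1151 and 5003 in P53-KO/Mta1 against P53-KO. They were 961, 2450 and 6453 in the arrays labelled Mta1-KO/Mta1 against WT, 2032, 4408 and 8956 in P53-KO against WT, 1285, 3449 and 7740 in P53-KO/Mta1 against WT, and 273, 1089 and 2913 for the difference of the responses.

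Samples with the same replicate number deviated together about as often as samples with other numbers. Of 30 pairs with the same number, 10 correlated over 0.1 (r -0.379 to 0.423, median 0.0263). So did 18 of 60 pairs with other numbers (r -0.552 to 0.460, median -0.0135). The numbers were not treated as pairs in the main fit, and processing shared between arrays was not tested otherwise. With the replicate block, the members called were 4 in Mta1-KO against WT and in P53-KO against WT, 1 in both comparisons of labelled Mta1 addition, 5 in the arrays labelled Mta1-KO/Mta1 against WT, 3 in P53-KO/Mta1 against WT and 0 for the difference of the responses, and no call of a member changed.

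A filter on dim probes could not be applied, since the centring removed the signal level, and signal over background is unknown for every gene, Eng included. Members have a single row each, so disagreement between rows could not be examined.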
